A study of Homo sapiens with 6 samples.

Results

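Cells can be killed by a cascade of proteases called caspases, and 7 genes of that cascade are described here: FAS, CASP8, CASP9, CYCS, DFFA, XIAP and BIRC5. They were chosen by gene symbol and not by measured value, among 4604 genes with a symbol on the arrays. Of 15246 probes, 18 carry one of these symbols: 4 each for FAS and CASP9, 3 for CASP8, 2 each for CYCS, DFFA and BIRC5, and 1 for XIAP. Averaged by gene, all 7 had a value on each of the 6 arrays and stood among the 7267 features tested.

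FAS is a death receptor of the cell surface, and when its ligand binds, the initiator caspase CASP8 is activated on its inner side. In a parallel route CYCS, cytochrome c, leaves the mitochondria and activates the initiator CASP9. Either route leads to the cleavage of DFFA, the inhibitor that holds a DNA-cutting nuclease in check. XIAP binds and blocks caspases directly, and BIRC5, survivin, belongs to the same inhibitor family and also has a role in chromosome segregation. In T cells, FAS is known for removing activated cells, and NF-kB is known for inducing genes that protect from cell death.

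The cells were Jurkat, a human T-cell leukaemia line, given siRNA against RPS3, siRNA against p65 (the RELA gene product, a subunit of NF-kB), or nonspecific control siRNA. Stimulation by anti-CD3/CD28 (1 ug) lasted 1, 3 or 6 h in every group, so that no unstimulated sample entered a comparison. Each 2-colour array carried Cy5-labelled RNA of 1 targeting siRNA and Cy3-labelled RNA of the control at the same time, with 1 array per siRNA and time. The labels do not say whether both arrays of a time shared a control culture, and knockdown in 1 leukaemia line is the model throughout.

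Values are log ratios of siRNA over control, read as log2 in the likely direction, in which a value below 0 means less transcript with the targeting siRNA. In bulk RNA, fewer cells with a transcript and less transcript per cell cannot be told apart. The RPS3 probe read -2.50, -2.53 and -1.44 at 1, 3 and 6 h of RPS3 siRNA, against 0.11, 0.006 and 1.11 with p65 siRNA. Probe 15848_1 of RELA averaged -1.07 with RPS3 siRNA and -0.91 with p65 siRNA, while its probe 28407_1 averaged -0.013 and -0.064 with these siRNAs. RPS3 siRNA arrays thus read RELA as low as the arrays of the siRNA aimed at it, and a p65 knockdown at the RNA level rests on 1 of 2 probes. The arrays had values for 12946 to 14423 probes, and ratios gave no level, so the 13 T-cell markers could be read as ratios alone, with medians of -0.21 to 0.48 on the 6 arrays. Markers of other lineages (11 tested) had medians of -0.003 to 0.29. Between arrays, log ratios over all probes correlated at -0.22 to 0.69 (Pearson's r), with the highest value between the 6 h arrays. The next highest were 0.47 for RPS3 siRNA at 1 h with p65 siRNA at 3 h, and 0.46 for RPS3 siRNA at 3 h with p65 siRNA at 1 h, above the same-time values of 0.12 at 1 h and 0.20 at 3 h. What set these correlations was not tested.

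**Figure D1:**
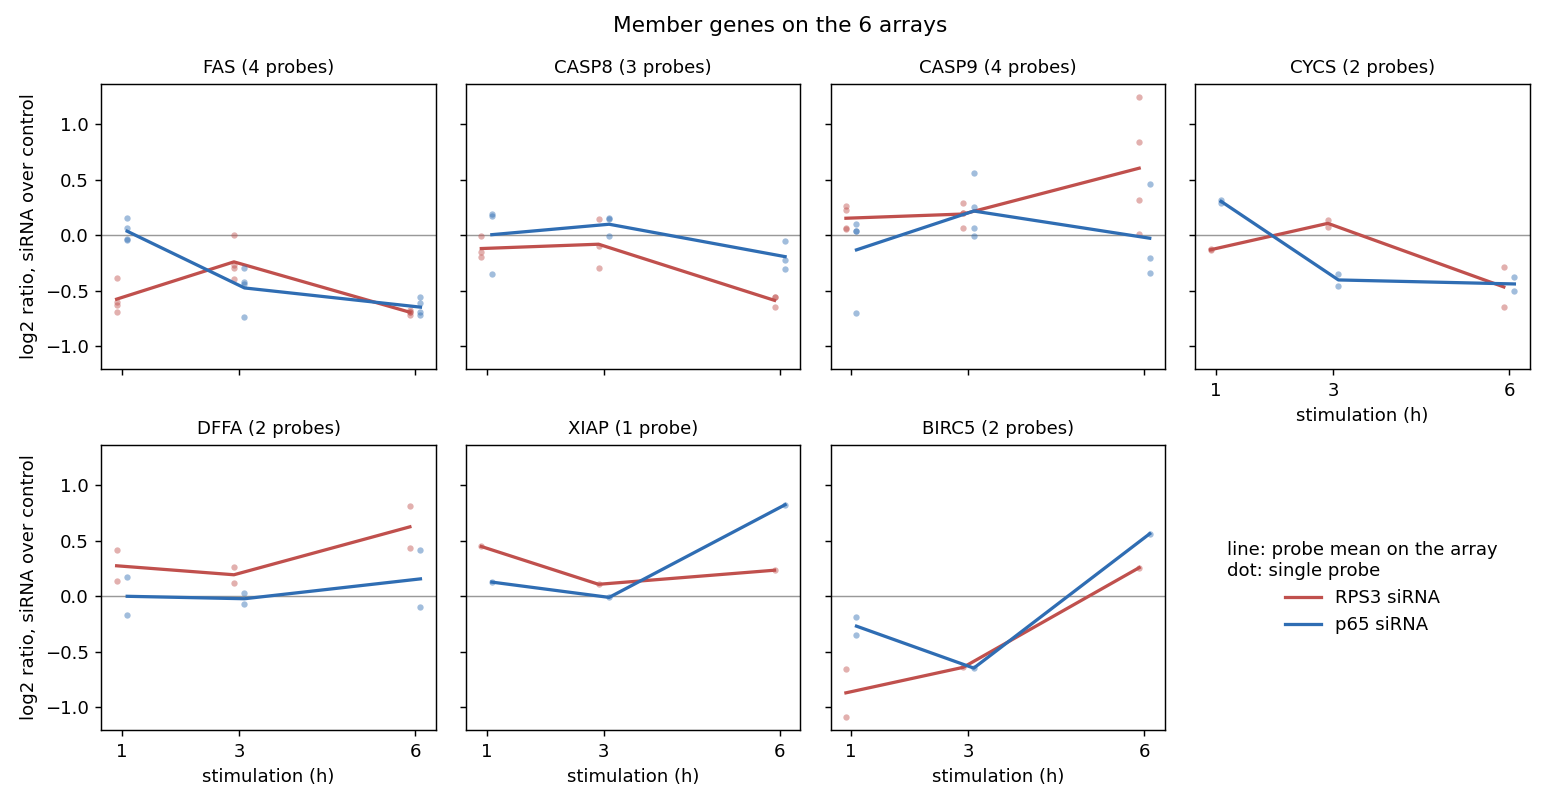
Log2 ratio of siRNA over control (y) by hours of stimulation (x) for each of the 7 genes, with RPS3 siRNA in red and p65 siRNA in blue. Lines join the mean of a gene's probes on each array and dots are single probes. FAS lay below 0 on 5 of 6 arrays, and BIRC5 lay below 0 at 1 and 3 h and above 0 at 6 h with both siRNAs.

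Averaged over the 3 times, FAS had the lowest ratio of the 7 genes with RPS3 siRNA and with p65 siRNA. This order rested on the 6 h arrays, since BIRC5 lay below FAS on all 4 arrays of 1 and 3 h. Without the 6 h arrays the mean with RPS3 siRNA was -0.41 for FAS and -0.75 for BIRC5, and with p65 siRNA -0.22 for FAS and -0.46 for BIRC5. With RPS3 siRNA its probe mean was -0.58 at 1 h, -0.24 at 3 h and -0.69 at 6 h. With p65 siRNA it was 0.036 at 1 h, -0.48 at 3 h and -0.65 at 6 h. FAS transcript thus read low on both 6 h arrays, near 0 on the p65 siRNA array at 1 h alone, and already low at 1 h of RPS3 siRNA. At 6 h 2.04% of the 7267 features lay lower than FAS with RPS3 siRNA and 0.468% with p65 siRNA. At 1 h these shares were 3.80% with RPS3 siRNA and 52.9% with p65 siRNA.

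At 6 h the FAS probes lay between -0.72 and -0.68 with RPS3 siRNA and between -0.72 and -0.56 with p65 siRNA. They spread more at 3 h. There the range was -0.40 to 0.002 with RPS3 siRNA, where probe 17626_1 alone was not below 0, and -0.74 to -0.30 with p65 siRNA. Over the 6 arrays the 6 pairs of FAS probes correlated at 0.65 to 0.97, values that share their RNA and hybridization. Probes of 1 array are not replicates, so this agreement speaks only for the reading of each array.

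Averaged over time, FAS was -0.50 ± 0.24 with RPS3 siRNA (SD, n = 3 arrays, 1.42-fold lower) and -0.36 ± 0.36 with p65 siRNA (SD, n = 3, 1.29-fold lower). Neither mean passed in the limma fit over all features, with an adjusted p of 0.422 for RPS3 siRNA and 0.935 for p65 siRNA. Unadjusted, FAS had a p of 0.0122 with RPS3 siRNA and 0.0491 with p65 siRNA, by the same limma fit. It was the only one of the 7 genes lower at an unadjusted p under 0.05 with RPS3 siRNA, where 4.76% of all features were, and likewise with p65 siRNA, where 2.24% were. Which member this was depended on the arrays and the fit. Without the RPS3 siRNA 6 h array the unadjusted limma p with RPS3 siRNA was 0.0633 for FAS and 0.0170 for BIRC5, and without the RPS3 siRNA 3 h array it was 0.0542 for FAS. Without both 6 h arrays, the p65 siRNA mean had an unadjusted limma p of 0.236 for FAS and 0.0186 for BIRC5. With the time point as a block, CASP8 (0.0332) and BIRC5 (0.0104) joined FAS (0.00924) with RPS3 siRNA, in unadjusted p by limma. Without the p65 siRNA 6 h array the p65 siRNA mean was -0.22, and without its 1 h array -0.56. The difference, RPS3 siRNA minus p65 siRNA, was -0.61 at 1 h, 0.24 at 3 h and -0.046 at 6 h, so it changed sign between times. Its mean was -0.14 with a limma SE of 0.22 (adjusted p = 1.00).

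**Figure D2:**
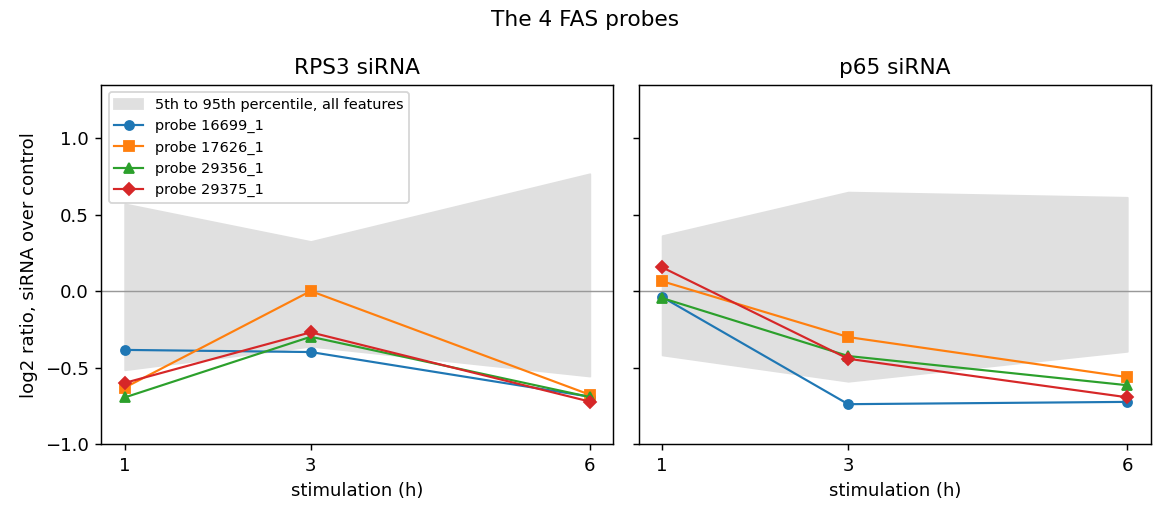
Log2 ratio (y) of each of the 4 FAS probes by hours of stimulation (x), RPS3 siRNA left and p65 siRNA right, with the 5th to 95th percentile of all features shaded. At 6 h all 4 probes lie between -0.72 and -0.56 on both arrays, under the shaded band.

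Because p65 is an NF-kB subunit, the RefSeq promoter windows of the 7 genes (GRCh38.p14, 250 bases before to 50 after a start site) were searched for the NF-kB consensus motif of 10 letters on both strands. No other motif was searched, so none could overlap it. RefSeq windows were at hand for 6 of the genes, 13 windows in all, and 1 of them held a match, as did 5.91% of all 35116 windows. It was 1 of 3 FAS windows, and it is shown here, chr10:88991181-88991480 on the plus strand, with the match in capitals at -157 to -148 from that start site.
FAS: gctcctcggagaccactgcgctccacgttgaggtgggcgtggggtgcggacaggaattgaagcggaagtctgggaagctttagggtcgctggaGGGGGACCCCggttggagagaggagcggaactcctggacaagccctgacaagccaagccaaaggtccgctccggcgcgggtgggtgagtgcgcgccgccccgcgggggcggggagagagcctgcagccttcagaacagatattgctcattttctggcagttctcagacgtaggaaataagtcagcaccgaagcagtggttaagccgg
The match is a run of letters and not a measured binding site, and windows without one say nothing about the factor.

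CASP8, the initiator that FAS activates, read low on 1 array, that of RPS3 siRNA at 6 h. With RPS3 siRNA it read -0.12 at 1 h, -0.081 at 3 h and -0.59 at 6 h, and with p65 siRNA 0.005, 0.099 and -0.19 at those times. All 3 probes lay between -0.65 and -0.56 on the RPS3 siRNA array at 6 h, where 4.21% of features were lower. At 1 h of p65 siRNA the probes disagreed, with 2 at 0.17 and 0.20 and 30017_1 at -0.35. The mean was -0.26 ± 0.28 with RPS3 siRNA (SD, n = 3) and -0.030 ± 0.15 with p65 siRNA (SD, n = 3), with a limma adjusted p of 0.635 for RPS3 siRNA and 0.994 for p65 siRNA. Without the RPS3 siRNA 6 h array the RPS3 siRNA mean was -0.10. RPS3 siRNA minus p65 siRNA was -0.13, -0.18 and -0.39 for CASP8 at 1, 3 and 6 h. No other of the 7 genes was below 0 in this difference at all 3 times, as 15.9% of features were.

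CYCS, cytochrome c of the respiratory chain and of the mitochondrial death route, had 2 probes that lay within 0.124 of each other on 5 arrays and apart on the array of RPS3 siRNA at 6 h, at -0.29 and -0.65. With RPS3 siRNA it was -0.13 at 1 h, 0.11 at 3 h and -0.47 at 6 h. With p65 siRNA it was 0.31 at 1 h, -0.40 at 3 h and -0.44 at 6 h. As for FAS, the p65 siRNA array at 1 h was the high one and both 6 h arrays were low. Over the 6 arrays CYCS and FAS correlated at 0.92, the highest r among the 21 pairs of the 7 genes. CASP8 and DFFA had the r farthest from 0, at -0.96. Both values are descriptions over 6 points that share arrays. The mean of CYCS was -0.16 ± 0.29 with RPS3 siRNA and -0.18 ± 0.42 with p65 siRNA (SD, n = 3 each), with a limma adjusted p of 0.831 for RPS3 siRNA and 0.946 for p65 siRNA. The difference between the siRNAs was -0.44 at 1 h, 0.51 at 3 h and -0.027 at 6 h. Without the RPS3 siRNA 6 h array the RPS3 siRNA mean was -0.012. Leaving out the 1 h array of p65 siRNA put that mean at -0.42.

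CASP9, the initiator that CYCS activates, lay above 0 on all RPS3 siRNA arrays, at 0.15, 0.19 and 0.60 at 1, 3 and 6 h. With p65 siRNA it read -0.13, 0.22 and -0.027. The CASP9 probes disagreed, and at 6 h of RPS3 siRNA the 4 ran from 0.015 to 1.25. Their range was wider than that of any other member on that array and on the 3 p65 siRNA arrays, but not at 1 and 3 h of RPS3 siRNA, where it was 0.209 and 0.220, against 0.311 and 0.399 for FAS. Probe 28623_1 gave 0.068, 0.068 and 0.015 with RPS3 siRNA, whereas 35072_1 gave 0.053, 0.20 and 1.25. Probe 32623_1, at -0.70 on the p65 siRNA array at 1 h, was blank on that siRNA's 6 h array. The 3 pairs of complete CASP9 probes correlated at -0.12 to 0.46 over the 6 arrays. The gene mean was 0.32 ± 0.25 with RPS3 siRNA and 0.020 ± 0.18 with p65 siRNA (SD, n = 3 each). With RPS3 siRNA the limma p was 0.0431 unadjusted and 0.549 adjusted, and with p65 siRNA 0.997 adjusted. Without the 6 h array the RPS3 siRNA mean of CASP9 was 0.17.

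DFFA, the nuclease inhibitor and caspase substrate, was the only one of the 7 genes whose arrays did not overlap between the siRNAs, as 7.93% of all features did not. With RPS3 siRNA it read 0.28, 0.20 and 0.63 at 1, 3 and 6 h, and with p65 siRNA 0.001, -0.021 and 0.16. It was also the only one that read higher with RPS3 siRNA at each of the 3 times, as 12.9% of features did. Probe 27223_1 carried most of this gap, at 0.42, 0.27 and 0.44 with RPS3 siRNA, against -0.17, -0.072 and -0.099 with p65 siRNA. Probe 17834_1 overlapped, at 0.14, 0.12 and 0.82 with RPS3 siRNA, against 0.17, 0.029 and 0.42 with p65 siRNA. The gene mean was 0.37 ± 0.23 with RPS3 siRNA and 0.046 ± 0.10 with p65 siRNA (SD, n = 3 each). By limma the difference was 0.32 with an SE of 0.17, an adjusted p of 1.00 and an unadjusted p of 0.0981. The RPS3 siRNA mean had a limma adjusted p of 0.480 and an unadjusted p of 0.0163. Without the RPS3 siRNA 6 h array the RPS3 siRNA mean was 0.24 and the difference 0.19.

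CASP9 and DFFA were thus the members higher at an unadjusted p under 0.05 with RPS3 siRNA, where 3.99% of features were. Without the RPS3 siRNA 6 h array neither was, with an unadjusted limma p of 0.281 for CASP9 and 0.130 for DFFA. From complete probes alone, CASP9 had an unadjusted limma p of 0.0553. With p65 siRNA 2.71% of features were higher at that p, and 0 of the 7 genes.

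XIAP, the direct caspase inhibitor, had 1 probe, so no second reading of the transcript was at hand. It read 0.45, 0.11 and 0.24 at 1, 3 and 6 h with RPS3 siRNA. With p65 siRNA it read 0.13, -0.009 and 0.83, and on that 6 h array 2.39% of features lay higher. The mean was 0.27 ± 0.17 with RPS3 siRNA and 0.32 ± 0.45 with p65 siRNA (SD, n = 3 each), with a limma adjusted p of 0.698 for RPS3 siRNA and 0.935 for p65 siRNA. The p65 siRNA mean rested on the 6 h array and was 0.060 without it. The difference between the siRNAs was 0.32, 0.12 and -0.59 at the 3 times.

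BIRC5, survivin, differed from the other 6 genes in how it ran with time. With RPS3 siRNA it read -0.87 at 1 h, -0.64 at 3 h and 0.26 at 6 h, and with p65 siRNA -0.27, -0.65 and 0.56. With RPS3 siRNA it was among the lowest transcripts at 1 and 3 h, with 1.13% and 0.826% of features lower, while at 6 h 24.8% were higher. The second probe, 28872_1, had values at 1 h alone, -0.65 with RPS3 siRNA and -0.19 with p65 siRNA, so the 3 and 6 h values come from 17343_1, which read -1.09 at 1 h of RPS3 siRNA and -0.35 at 1 h of p65 siRNA. Across siRNAs the arrays overlapped, and the means were -0.42 ± 0.60 with RPS3 siRNA and -0.12 ± 0.62 with p65 siRNA (SD, n = 3 each). Neither mean passed, with a limma adjusted p of 0.698 for RPS3 siRNA and 0.984 for p65 siRNA. Without the 6 h array of each siRNA these means were -0.75 and -0.46.

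The slope of BIRC5 was 0.21 per hour of stimulation with a limma SE of 0.054. This gave an unadjusted p of 0.00587 and an adjusted p of 0.112. It was the only one of the 7 slopes with an unadjusted p under 0.05, and 14.2% of all features had such a slope upward and 9.19% downward. The 1 h values average 2 probes and the later ones come from 17343_1, whose own slope was 0.24 (limma adjusted p = 0.0734). The course was not a straight line, with means over both siRNAs of -0.57, -0.64 and 0.41 at 1, 3 and 6 h. The slope of the gene did pass without the p65 siRNA 1 h array (0.28, adjusted p = 0.0267) and without the p65 siRNA 3 h array (0.20, adjusted p = 0.0373), fits in which 607 and 273 features passed. It did not pass without any of the other 4 arrays: the limma adjusted p was 0.195, 0.215 and 0.894 without the RPS3 siRNA array of 1, 3 and 6 h, and it was 0.521 when the 6 h array of p65 siRNA was left out. The other slopes ran from -0.11 for CYCS and -0.082 for FAS to 0.057 for XIAP, with adjusted p-values of 0.216 to 0.555.

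Since survivin works in the chromosomal passenger complex with Aurora B, the Aurora kinases and other mitotic genes were set beside it. AURKB read -0.39, -0.32 and 0.077 at 1, 3 and 6 h with RPS3 siRNA and -0.14, -0.24 and 0.61 with p65 siRNA. AURKA, a related kinase of the spindle poles, read -0.67, -0.53 and 0.57 with RPS3 siRNA and -0.091, -0.32 and 0.097 with p65 siRNA. Both kinases thus also lay below 0 at 1 and 3 h and above 0 at 6 h, signs that 7.97% of all 7267 features had. Of the 21 other mitotic genes only 1 (4.76%) had these signs too, BUB1B, a mitotic checkpoint kinase. In the other lists, genes outside mitosis such as CD5, PECAM1, ROCK1 and CTNNB1 had them. BUB1B and these genes were named after their values were seen. The median of 21 other mitotic genes stayed below 0 with RPS3 siRNA at all times, at -0.52, -0.30 and -0.45, and with p65 siRNA it was 0.067, -0.24 and -0.068. All 21 had a mean below 0 with RPS3 siRNA, where 47.1% of all features had one. With p65 siRNA 13 had one, where 45.3% of all features did. In that list PLK1, a mitotic kinase, was lowest at 1 h as BIRC5 was, at -1.03, -0.71 and -0.16 with RPS3 siRNA, while cyclin B1, CCNB1, was lowest at 6 h, at -0.51, -0.53 and -1.07.

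**Figure D3:**
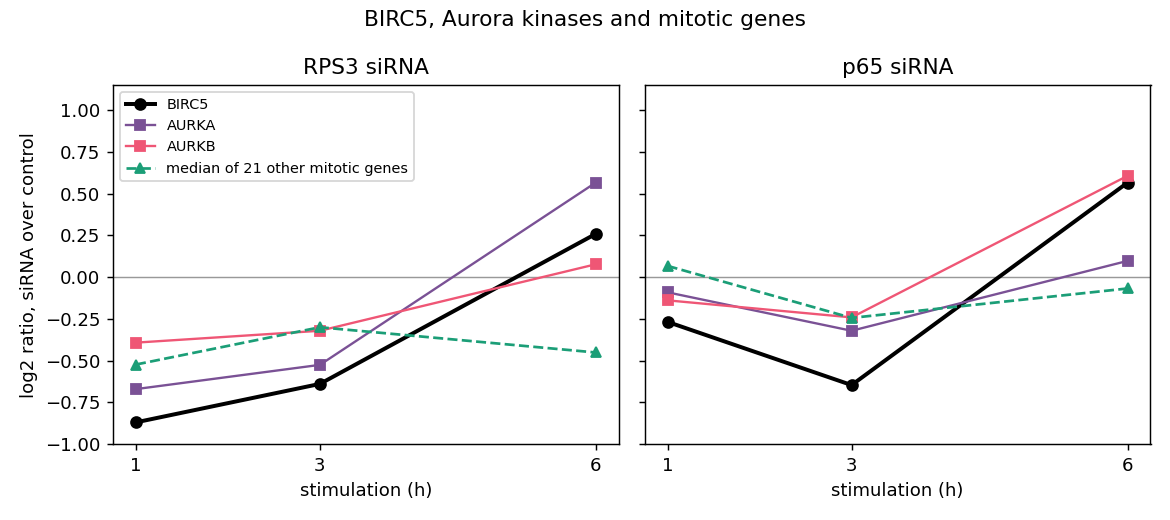
Log2 ratio (y) by hours of stimulation (x) of BIRC5, AURKA, AURKB and the median of 21 other mitotic genes, RPS3 siRNA left and p65 siRNA right. BIRC5 and both Aurora kinases cross 0 between 3 and 6 h, and the median of the other mitotic genes is -0.45 at 6 h of RPS3 siRNA and -0.068 at 6 h of p65 siRNA.

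Across the 7 genes, the mean ratio was below 0 for 4 and above 0 for 3 with either siRNA. Their median was -0.16 with RPS3 siRNA and -0.030 with p65 siRNA, beside 0.011 and 0.018 over all features in the same comparisons. On all 3 RPS3 siRNA arrays, FAS and CASP8 lay below 0 (15.5% of features did), and CASP9, DFFA and XIAP above 0 (16.2% did). With p65 siRNA, 0 members were below 0 on all 3 arrays and 0 above, where 9.66% and 13.2% of features were. At those shares about 1 of 7 features would lie below 0, and about 1 above, on all 3 RPS3 siRNA arrays. Thus the 7 genes did not share a direction.

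By limma with adjustment over all 7267 features, 0% passed with RPS3 siRNA, with p65 siRNA, in their difference or for the slope, so 0 of the 7 genes did. In the difference 2.55% of features had an unadjusted p under 0.05 and 0 members did, averaged by gene. With each of 10721 complete probes tested alone, 0.0653% passed with RPS3 siRNA and 0% with p65 siRNA, 0 of them a member's. Of the 16 complete member probes, 5 were lower at an unadjusted p under 0.05 with RPS3 siRNA, all 4 FAS probes and CASP8 probe 30017_1, where 5.62% of all probes were. With p65 siRNA 2 were, the FAS probes 16699_1 and 29356_1, where 2.71% of all probes were.

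**Figure D4:**
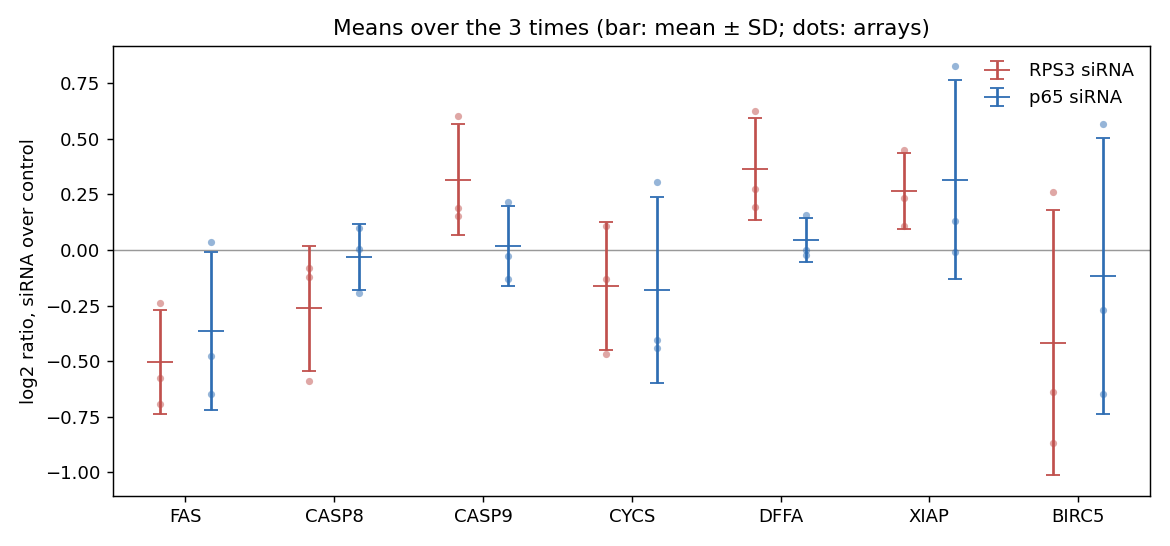
Mean log2 ratio over the 3 times with SD (bars, n = 3 arrays) and single arrays (dots) for the 7 genes (x), RPS3 siRNA left of p65 siRNA in each pair. FAS has the lowest mean of the 7 with RPS3 siRNA and with p65 siRNA, although BIRC5 lies lower on every 1 and 3 h array. DFFA alone has groups that do not overlap, as 7.93% of all features do not. Of its probes, 27223_1 separates the siRNAs and 17834_1 overlaps.

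Of the other genes of the cascade, 0 passed in either direction in each comparison, and the medians of their lists are to be read beside those of all features, 0.011 with RPS3 siRNA and 0.018 with p65 siRNA. Among 17 death receptors, ligands and adaptors tested of 24 listed, the median was 0.009 with RPS3 siRNA and 0.042 with p65 siRNA. TNFSF10, which encodes the death ligand TRAIL, was the lowest of them at -0.54 ± 0.35 with RPS3 siRNA and -0.30 ± 0.33 with p65 siRNA (SD, n = 3 each). FASLG, the ligand of FAS, was 0.18 ± 0.21 with RPS3 siRNA and -0.089 ± 0.10 with p65 siRNA, and FADD, the adaptor between FAS and CASP8, was 0.067 ± 0.13 and 0.062 ± 0.20. CFLAR, a catalytically inactive relative of CASP8 that blocks it, was -0.056 ± 0.16 with RPS3 siRNA and 0.042 ± 0.12 with p65 siRNA, and it and FADD were named for their place beside FAS after their values were seen. The receptor TNFRSF1A was -0.010 ± 0.10 with RPS3 siRNA and 0.27 ± 0.13 with p65 siRNA, and the cytokine LTA reached 0.99 on the RPS3 siRNA array at 1 h only, with a mean of 0.31 ± 0.59 there against -0.087 ± 0.11.

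Of the other caspases 4 of 9 were tested, CASP1, CASP4, CASP5 and CASP10, with a median of 0.042 with RPS3 siRNA and 0.039 with p65 siRNA. The largest mean was that of CASP5, an inflammatory caspase, at 0.27 ± 0.22 with RPS3 siRNA and 0.063 ± 0.12 with p65 siRNA. Of inhibitor of apoptosis proteins and their antagonists 5 of 10 were tested, with medians of -0.009 with RPS3 siRNA and 0.007 with p65 siRNA. BIRC6, a giant member of the inhibitor family, averaged 0.54 ± 0.90 with RPS3 siRNA through a single 6 h value of 1.57, and 0.007 ± 0.39 with p65 siRNA. BIRC2 was -0.031 ± 0.21 with RPS3 siRNA and -0.19 ± 0.16 with p65 siRNA, and DIABLO, which displaces XIAP from caspases, was -0.050 ± 0.13 and -0.082 ± 0.28.

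APAF1, the scaffold on which CYCS activates CASP9, read -0.25 at 6 h of RPS3 siRNA and -0.34 at 6 h of p65 siRNA and lay within 0.07 of 0 at the earlier times. With 3 others it made up the apoptosome and mitochondrial release list (4 tested of 14), whose median was 0.024 with RPS3 siRNA and 0.052 with p65 siRNA. Of 10 caspase substrates tested of 16 listed, 8 lay below 0 on average with RPS3 siRNA (median -0.13) and 8 with p65 siRNA (median -0.11). Of all features, 47.1% had a mean below 0 with RPS3 siRNA and 45.3% with p65 siRNA. MAP3K1, a kinase that caspases cleave, was -0.38 ± 0.12 with RPS3 siRNA and -0.45 ± 0.10 with p65 siRNA, below 0 on all 6 arrays. PARP1, a DNA repair enzyme and caspase substrate, was 0.16 ± 0.10 with RPS3 siRNA and 0.19 ± 0.09 with p65 siRNA.

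Of 9 genes tested from a list of NF-kB-dependent survival genes, 0 passed with either siRNA. That list also held NFKBIA, which encodes an inhibitor of NF-kB. The mean was below 0 for 9 of 9 with RPS3 siRNA (median -0.19), as for 47.1% of all features, and for 8 of 9 with p65 siRNA (median -0.17), as for 45.3%. At an unadjusted limma p under 0.05, 3 were lower with RPS3 siRNA, where 4.76% of all features were, and 2 with p65 siRNA, where 2.24% were. NFKBIA was among them with both, at an unadjusted limma p of 0.00368 with RPS3 siRNA and 0.000969 with p65 siRNA. Some means lay near 0, such as -0.031 for BIRC2 with RPS3 siRNA. TNFAIP3, which encodes A20, read -0.99, -0.54 and -0.38 at 1, 3 and 6 h of RPS3 siRNA and -1.19, -1.34 and -0.59 with p65 siRNA. FAS ran differently in time with p65 siRNA, nearest to 0 at 1 h and lowest at 6 h. BCL2A1, a survival protein of the BCL2 family, was also lowest at 6 h with both siRNAs. It read 0.20, -0.12 and -0.67 with RPS3 siRNA and -0.14, -0.18 and -0.55 with p65 siRNA. At 1 h of RPS3 siRNA it thus lay above 0, where FAS read -0.58. SOD2 was lowest at 6 h as well, at -0.30 with RPS3 siRNA and -0.44 with p65 siRNA.

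The genes most like each member over the 6 arrays were sought by Pearson's r among those at least as variable as the median feature, and with 6 points and 1866 or 1867 genes searched, high values arise easily. FAS was most like TRAT1, a membrane adaptor of the T-cell receptor (r = 0.994), TOPORS and AHCTF1. CYCS was most like FAM133B (r = 0.987), CASP8 like CTSL (0.987), CASP9 like CTSW (0.964), DFFA like NCOA2 (0.990), XIAP like DDX6 (0.940) and BIRC5 like C3orf62 (0.997). TRAT1 read -0.37, 0.049 and -0.45 with RPS3 siRNA and 0.25, -0.25 and -0.39 with p65 siRNA, the same order of the 6 arrays as FAS, with every value higher.

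The labels carry database numbers that form 2 runs, the first with RPS3 siRNA at 3 h and p65 siRNA at 1 h, the second with the other 4 arrays. Within the first, RPS3 siRNA minus p65 siRNA was -0.28 for FAS, 0.19 for DFFA, 0.32 for CASP9 and -0.37 for BIRC5. Within the second it was -0.074, 0.38, 0.28 and -0.26 for these genes in that order. For CYCS the sign differed, at -0.20 in the first and 0.12 in the second. Times differ between the siRNAs inside each run, so the run and the time cannot be told apart in these values.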

How the data were processed

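The authors' deposited table held log ratios per probe for 6 arrays, read here as log2. The sources used here do not give the log base, image analysis, background correction, normalization or the reason for blank cells (5.40 to 15.1% per array). Deposited medians lay near 0 (-0.018 to 0.007), and whether the arrays had been centred is not given. A natural log would make every size larger on the log2 scale. The direction, siRNA (Cy5) over control (Cy3), is likely rather than stated. RNA was extracted with Trizol and primed with oligo-dT, per the labels' protocols. Without channel intensities, signal over background is not known, and precision is limited by the number of arrays.

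Each array was centred on its median. Probes of 1 symbol (10169 probes, platform annotation) were averaged per array, and 7267 features with values on all 6 arrays were tested with limma 3.58.1 in R 4.3.3 (lmFit, eBayes; tested on simulated data): each siRNA's mean against 0, their difference, and the slope per hour, with Benjamini-Hochberg adjustment and a threshold of 0.05. The 3 times stand as replicates of a siRNA; separate cultures are not named, and the spread behind the p-values, that between these arrays, may be technical. Testing a ratio against 0 gives no separate estimate of the spread of the control, which enters through each ratio. Such a test also keeps any dye effect that all arrays share. Members, gene lists and naming rules (all members; of each list, the largest means) were chosen with earlier results of these data known. Not all genes with the largest means are printed, such as CENPE and KIF14 of the mitotic list. Alternatives covered probe averaging, centring, blanks, time as a block, label number series and leaving out arrays.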

Additional observations from a re-analysis of the deposited data

Results flagged for a closer look

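BIRC5 had opposite signs at different times. Both 1 h arrays and both 3 h arrays lay below 0 and both 6 h arrays above 0. The mean at 6 h minus the mean at 1 h was 0.98, and at 6 h minus 3 h it was 1.05 (2 arrays per time, 1 of each siRNA). The pairwise differences between times were not tested. The slope over all arrays had a limma adjusted p of 0.112. Groups of 3 arrays were too small to search for single outlying arrays.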

How the results depend on the processing

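No member passed in any alternative for RPS3 siRNA, p65 siRNA or their difference, whose lowest adjusted p were 0.187 (DFFA), 0.419 (BIRC5) and 0.771 (DFFA). All member means with RPS3 siRNA kept their sign in all 107 alternative values, but many of these values could not move. Leaving out a p65 siRNA array, the time block, the number series and allowing blanks left each RPS3 siRNA mean as it was. The sign of small values turned for CASP8 with p65 siRNA (0.039 by probe 16104_1, 0.092 by 28653_1, 0.052 without both 6 h arrays), CASP9 with p65 siRNA (-0.10 by 30437_1, -0.006 after quantile normalization) and DFFA with p65 siRNA (-0.11 by 27223_1, -0.010 without both 6 h arrays). It also turned for the difference of FAS (0.010 by 16699_1), CYCS (-0.025 by 29247_1) and XIAP (0.22 without both 6 h arrays), and for the CASP9 slope (-0.040 by 28623_1, -0.030 by 30437_1). Leaving out 1 array in turn gave, with p65 siRNA, -0.094 to 0.052 for CASP8, -0.079 to 0.096 for CASP9, -0.010 to 0.079 for DFFA and -0.46 to 0.15 for BIRC5. For the difference it gave -0.28 to 0.058 for FAS, -0.12 to 0.26 for CYCS, -0.21 to 0.205 for XIAP and -0.64 to 0.041 for BIRC5, and for the slope -0.040 to 0.12 for XIAP.

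Features passing with RPS3 siRNA, 0 in the reported fit, were 7 by single probes, 2 after quantile normalization, 3 with the time point as a replicate block, 3 without both 6 h arrays and 0 to 2 without 1 array. For the difference, also 0, they were 1 after quantile normalization, 2 with that block and 1 without both 6 h arrays. For the slope, also 0, they were 1 after quantile normalization and 0 to 607 without 1 array. With the block FAS averaged -0.50 with RPS3 siRNA (adjusted p = 0.197). Deviations from the mean of the 3 arrays of each siRNA were also correlated. Between same-time arrays r was 0.01, 0.10 and 0.76 at 1, 3 and 6 h, so the time did not pair all arrays. Across times, r was 0.57 for RPS3 siRNA at 3 h with p65 siRNA at 1 h. It was 0.54 for RPS3 siRNA at 1 h with p65 siRNA at 3 h. Pairs of a 6 h array with an earlier array of the other siRNA had r of -0.53 to -0.36. The 3 deviations of a siRNA sum to 0, so these negative values follow in part from the subtraction. Without it, log ratios over all probes gave these pairs r of -0.22 to 0.01. Causes were not tested.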
